A study of Homo sapiens with 6 samples.

Results

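RNA levels of 47 genes of homologous recombination and the Fanconi anaemia pathway were examined after short hairpin RNA against CUEDC1 in T47D, an oestrogen receptor-positive human breast ductal carcinoma line. The members are a fixed list of gene symbols, and all 47 were found among the 17758 genes of the deposited table. One group of 3 libraries carried a non-targeting lentiviral hairpin (shNC), and the other group of 3 carried a hairpin against CUEDC1 (shCUEDC1). All cells were of this line and stably transduced, and since the number of hairpins is not stated, loss of CUEDC1 and off-target silencing cannot be told apart. Libraries of a group are described as biological replicates without naming separate infections, so every p-value rests on library-to-library spread alone, which may be technical.

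Homologous recombination copies sequence from the sister chromatid to mend a double-strand break. The broken ends are first resected, and BRCA1, PALB2 and BRCA2 then prepare the single strand for exchange with the intact copy. The Fanconi anaemia proteins act where the strands of DNA are crosslinked: a core ubiquitin ligase with the conjugating enzyme UBE2T marks FANCD2 and FANCI, and the crosslink is then cut out and repaired with recombination factors. The kinases ATM and ATR signal the damage, and inherited loss of BRCA1, BRCA2, PALB2 or several of their partners predisposes to breast cancer, which is why the pathway is studied in this tissue. Many of these genes are transcribed most strongly in S and G2 phase of the cell cycle.

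Few of these genes passed the test between the groups. With all 6 libraries, 2 of the 47 rose and 0 fell (edgeR quasi-likelihood test, Benjamini-Hochberg adjusted p below 0.05 over the 13824 genes tested), a share of 4.26% where 9.96% of all genes tested were called, 5.19% higher and 4.77% lower. The genes that rose were CHEK1, which encodes the checkpoint kinase CHK1, and TP53BP1, which encodes the break-site protein 53BP1. At an unadjusted p below 0.05, 14 of the 47 differed, 12 higher and 2 lower, a share of 29.8% against 25.2% of all genes. Among the 13824 genes tested, 1714 were higher and 1764 lower at that threshold. The median log2 difference (shCUEDC1 over shNC) was 0.06 over the members and -0.004 over all genes tested. No member differed by more than 2-fold, called or not. Of all genes tested, 1.17% were both called and past that size, a share at which a list of 47 would hold few or none.

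The fit also gave an interval for each gene on its own. These intervals rest on library-to-library spread, which may be technical, and each covers its own gene, not all 47 at once. The 95% interval of the fold difference lay between 1.5-fold lower and 1.5-fold higher for each of the 47 members, compared with 76.2% of all genes tested. Without shNC 3 this held for each member but ATRIP, whose upper bound was then 0.61 on the log2 scale, past 1.5-fold. The 76.2% covers genes down to 0.0233 FPKM (fragments scaled to gene length and library size), while the lowest member was at 1.58 FPKM. Intervals are wider at low counts, so the 2 sets are not alike in this. With all libraries the interval lay within 1.25-fold either way for 25 of the members. The widest interval, a half-width of 0.36 on the log2 scale, was that of FANCC, and the narrowest was that of RAD50 at 0.11. The lowest bound of any member was -0.53 for WRN and the highest 0.55 for ATRIP.

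**Figure D1:**
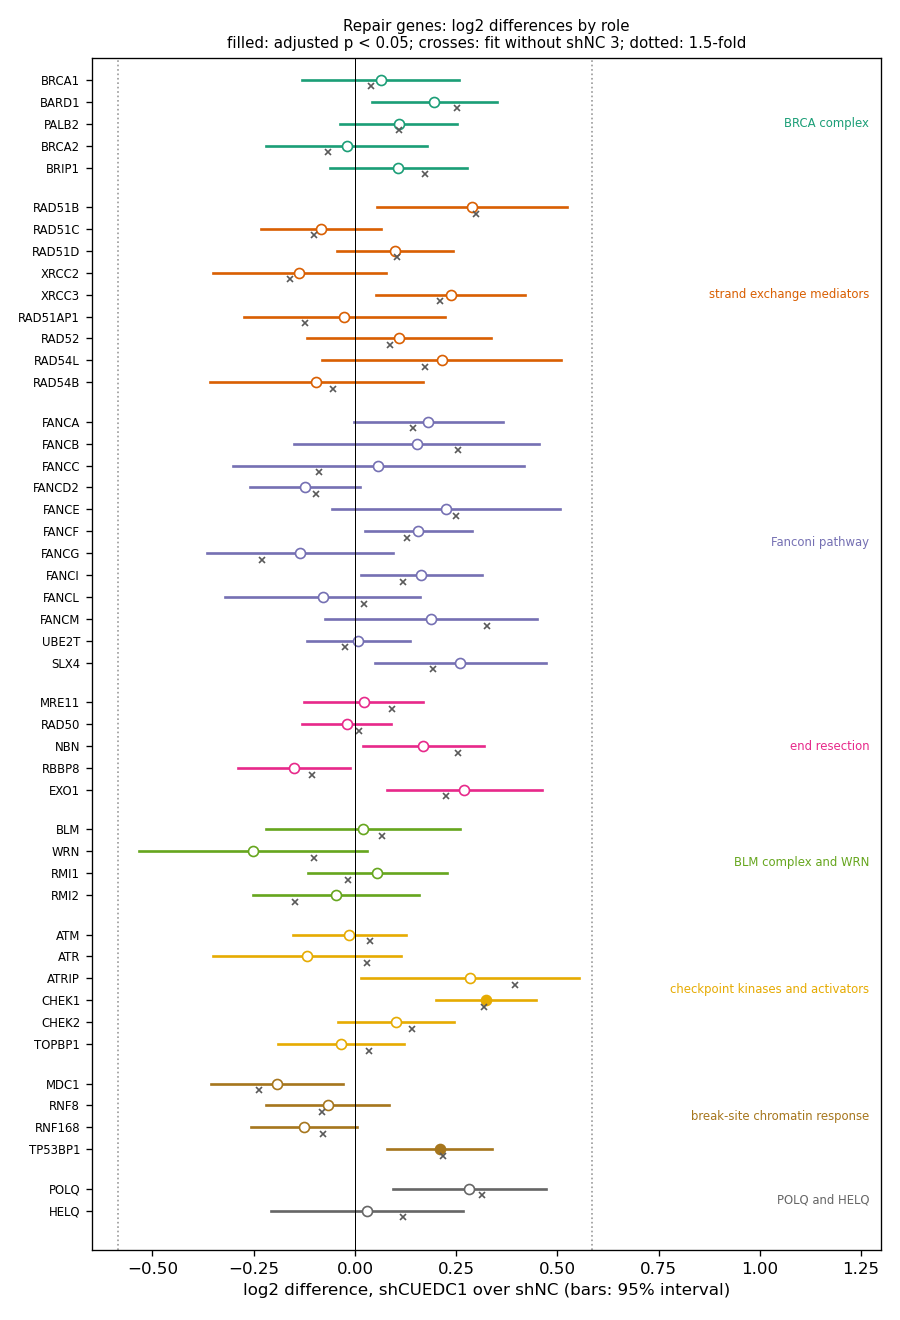
Log2 difference of each of the 47 genes (horizontal axis, shCUEDC1 over shNC) with its 95% interval, in blocks by role; filled circles passed the test, crosses are the estimates without shNC 3, and dotted lines mark 1.5-fold. Only CHEK1 and TP53BP1 are filled, and no interval crosses a dotted line.

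The hairpin target was checked first. CUEDC1 (Entrez 404093, chromosome 17 from 57861243 to 57955323, GRCh38) was at 109.6, 109.3 and 93.3 CPM (estimated reads after scaling each library to the same size) in shNC 1, 2 and 3 and at 31.4, 33.8 and 31.98 CPM in shCUEDC1 1, 2 and 3. Each knockdown library was below each control, by -1.68 on the log2 scale (edgeR adjusted p = 9.27e-06, 95% interval -1.85 to -1.51). An exact two-sided permutation test gave 0.1, which no design of 3 against 3 can go below. Library totals ranged from 18924327 to 19731609 estimated reads. The library shNC 3 stood apart: across 10142 genes, log2 differences had an SD of 0.236 and 0.256 between it and the other shNC libraries, against 0.107 between those and 0.117 to 0.124 between shCUEDC1 libraries. Between shNC 1 or shNC 2 and the shCUEDC1 libraries the SD was 0.231 to 0.239, about as large as between shNC 3 and those controls. Calls are therefore also given without shNC 3. That choice followed its values, and the remaining controls may understate the spread between controls, so p-values without shNC 3 may be too small. The luminal markers ESR1, GATA3, FOXA1, KRT8, KRT18, KRT19, EPCAM and CDH1 were present, the lowest being ESR1 at 19.8 FPKM (fragments scaled to gene length and library size, a level per length). Of the 8, 0 were called with all libraries, and ESR1 and FOXA1 were called higher without shNC 3, by 0.30 and 0.20 (edgeR adjusted p = 1.92e-06 and 3.93e-04). Their summed level was 8218 CPM in shNC 3 and 10281 to 10500 CPM in the other libraries. Of 7 stromal markers 5 were tested and COL1A1 rose by 0.61 (edgeR adjusted p = 0.00843), with summed levels of 28.9 to 34.9 CPM in shNC and 45.5 to 53.5 CPM in shCUEDC1. LUM was also called higher without shNC 3 (0.90, edgeR adjusted p = 1.43e-04). Of 6 leukocyte markers 5 were tested and LYZ rose by 1.68 (edgeR adjusted p = 3.86e-04), with sums of 8.51 to 8.92 and 14.2 to 14.8 CPM, while CD3E was at 0 in each control and PTPRC had means of 0.713 and 0.548 CPM. The 4 endothelial markers did not pass the count filter and summed to 0.472 to 1.07 CPM. The part of these markers in the results below was not tested.

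CHEK1 was the member with the firmest difference. CHK1 is the kinase that ATR activates at stalled forks and resected breaks, and it holds cells out of mitosis until repair is done. CHEK1 (Entrez 1111, chromosome 11 from 125625136 to 125676255, GRCh38) was at 83.0, 78.0 and 78.9 CPM in the shNC libraries and at 105, 97.5 and 97.5 CPM in the shCUEDC1 libraries. The groups did not overlap, and shNC 3 lay between the other controls. CHEK1 rose 1.25-fold (95% interval 1.15 to 1.36), or 0.32 on the log2 scale (SE 0.055, edgeR adjusted p = 0.00599). Without shNC 3 it differed by 0.32 (edgeR adjusted p = 7.37e-06). It was called in each of the 15 alternative analyses, with log2 differences from 0.29 to 0.35 and a highest adjusted p of 0.0448 (edgeR without shCUEDC1 1).

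TP53BP1 passed the test narrowly. 53BP1 binds ubiquitylated chromatin beside a break and shields the ends from resection, so it opposes BRCA1. TP53BP1 (Entrez 7158, chromosome 15 from 43403061 to 43510728) was at 89.2, 88.2 and 89.7 CPM in shNC and at 109.9, 103 and 96.2 CPM in shCUEDC1. Each knockdown library was above each control, and the shCUEDC1 libraries spread more widely than the controls. TP53BP1 rose by 0.21 on the log2 scale (edgeR adjusted p = 0.0499, 95% interval 0.08 to 0.34), and by 0.22 without shNC 3 (edgeR adjusted p = 0.00123). It was called in 5 of 15 alternatives, and its edgeR adjusted p reached 0.206 without shCUEDC1 1. Exons of TUBGCP4 on the opposite strand cover 28.7% of its exon bases in GENCODE v29, and since the strand used in counting is not given in the sources used here, reads of this pair cannot be told apart there. TUBGCP4 itself differed by -0.16 (edgeR adjusted p = 0.211).

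**Figure D2:**
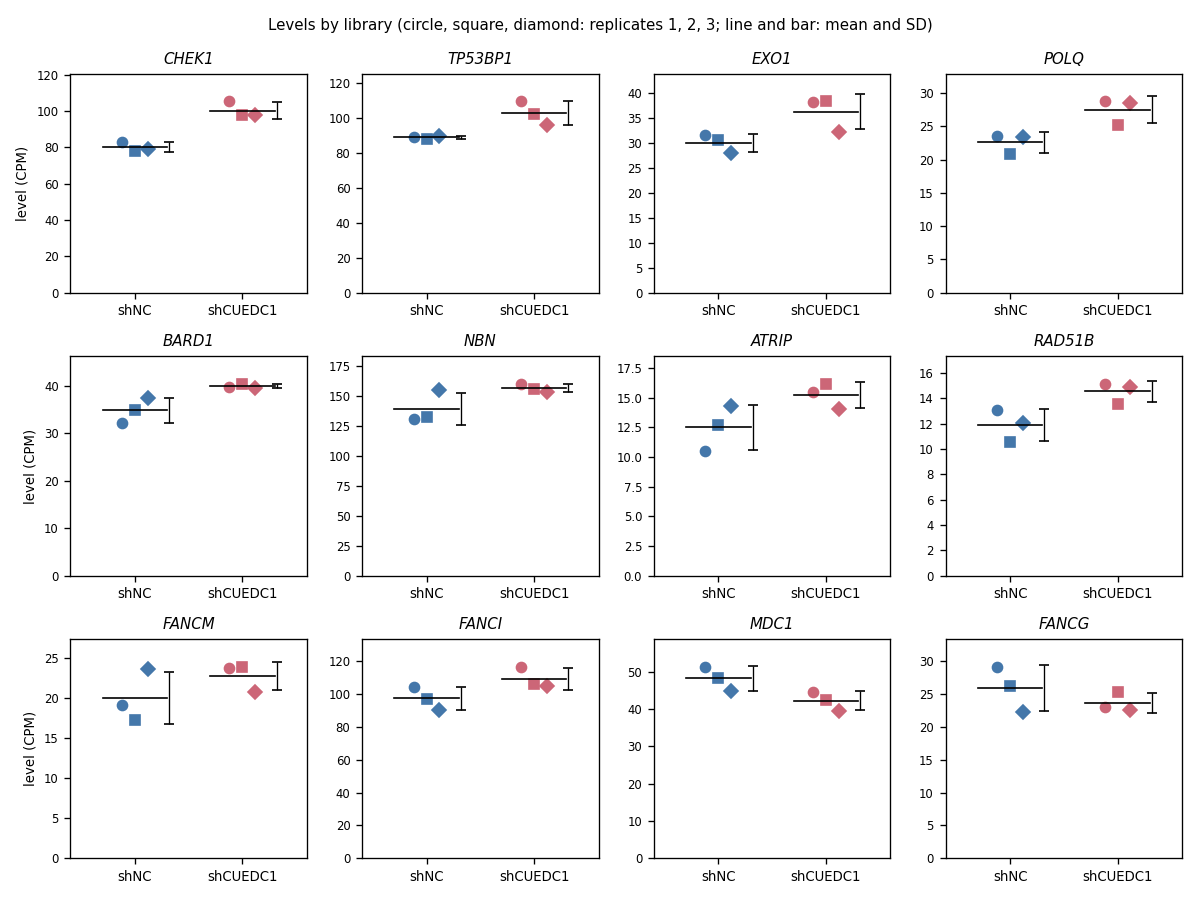
Level in CPM (vertical axis, from 0) of 12 genes in each of 3 shNC and 3 shCUEDC1 libraries; symbols are replicates, the line is the mean and the bar the SD. CHEK1, TP53BP1, EXO1, POLQ, BARD1, RAD51B, FANCI and MDC1 separate the groups. In NBN, ATRIP and FANCM the diamond of shNC 3 lies among the knockdown libraries.

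The promoters of both genes are shown because they are the members called with all libraries. That of FANCA is shown because it was the only member whose window, the first listed where a gene had several, held both an E2F word and a CCAAT box. Other members also held more than 1 kind of word, such as FANCC with an E2F word and the CHR element. The stretches are the bases before the first listed RefSeq start site that no GENCODE exon covers. They read 5′ to 3′ on the gene's strand, from RefSeq on GRCh38.p14. They lie at chr11:125626035-125626228 (plus strand), chr15:43510729-43510890 (minus strand) and chr16:89816658-89816897 (minus strand). Capitals mark E2F words and the CCAAT box, which reads ATTGG where it lies on the other strand. The E2F word of FANCA is TTTGCCGC on the other strand.
CHEK1: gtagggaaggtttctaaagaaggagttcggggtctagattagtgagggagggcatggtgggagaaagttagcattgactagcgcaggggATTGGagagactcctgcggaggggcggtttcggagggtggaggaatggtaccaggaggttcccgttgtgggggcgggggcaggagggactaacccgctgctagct
TP53BP1: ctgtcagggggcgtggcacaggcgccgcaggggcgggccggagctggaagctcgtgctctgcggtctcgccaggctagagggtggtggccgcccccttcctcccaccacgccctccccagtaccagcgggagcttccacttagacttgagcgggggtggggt
FANCA: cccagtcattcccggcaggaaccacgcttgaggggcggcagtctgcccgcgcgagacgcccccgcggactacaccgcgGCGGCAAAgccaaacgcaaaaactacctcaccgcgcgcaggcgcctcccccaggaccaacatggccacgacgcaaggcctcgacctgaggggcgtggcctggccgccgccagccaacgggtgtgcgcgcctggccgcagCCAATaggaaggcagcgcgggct
In CHEK1 a CCAAT box begins 105 bases before the start. In FANCA an E2F word begins 172 bases and a CCAAT box 33 bases before it, and the printed stretch of TP53BP1 holds neither, its CCAAT box lying in the rest of the window.

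Both strands of a window from 250 bases before to 50 after the start were searched for the E2F words TTTCCCGC, TTTGGCGC, TTTCGCGC and TTTGCCGC, for the CHR element TTTGAA, for CCAAT and for the consensus oestrogen response element. None of these words contains another. Where a gene had several windows, as BRCA1, CHEK1 and EXO1 did, only the first listed was counted, for members and other genes alike. Words at other start sites were not scored. A window was given for 42 of the members. Those of XRCC2, FANCA, FANCC, FANCD2, EXO1 and TOPBP1, 14.3% of the 42, held an E2F word, against 5.24% of the 11271 tested genes with a window and 3.33% of all 27305. CCAAT was in 47.6% of the members' windows and in 36.6% of those of tested genes (35.7% of all). The CHR word was in 16.7% against 10.1% (15.4% of all), and the oestrogen response element was in 0 of the 42 against 0.0177% (0.0659% of all). RAD54B, FANCI, NBN, WRN and RMI2 had no entry. CHEK1 and TP53BP1 were not among the genes with an E2F word in this window.

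Of the BRCA1, PALB2 and BRCA2 group with BARD1 and BRIP1, 0 of 5 were called. BRCA1, the ubiquitin ligase that starts recombination, was at 50.3, 41.1 and 43.0 CPM in shNC and 50.6, 44.8 and 45.1 CPM in shCUEDC1. Its groups overlapped and differed by 0.06 (edgeR adjusted p = 0.705, 95% interval -0.13 to 0.26). BRCA2, which acts on the resected strand, differed by -0.02 (95% interval -0.22 to 0.18, edgeR adjusted p = 0.918). PALB2, the bridge between BRCA1 and BRCA2, was at 31.6, 31.0 and 31.2 CPM in shNC and 34.5, 34.9 and 31.9 CPM in shCUEDC1. Only a narrow gap parted shCUEDC1 3 from the controls, and PALB2 differed by 0.11 (edgeR adjusted p = 0.34).

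The call of BARD1, the partner of BRCA1 in its ligase, depended on shNC 3. It was at 32.2, 35.0 and 37.4 CPM in shNC and 39.8, 40.5 and 39.5 CPM in shCUEDC1. The groups did not overlap, and shNC 3 was the control nearest the knockdown. BARD1 differed by 0.20 with all libraries (edgeR adjusted p = 0.109) and 0.25 without shNC 3 (95% interval 0.12 to 0.38, edgeR adjusted p = 0.00275). BRIP1, a helicase that binds BRCA1, differed by 0.11 with all libraries and by 0.17 without shNC 3 (edgeR adjusted p = 0.428 and 0.0527).

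Among the mediators of strand exchange, 0 of 9 were called with all libraries. RAD51C had the highest level per length of the 9, at 27.9 FPKM over the 6 libraries. Its CPM was 30.7, 29.7 and 28.9 in shNC and 29.2, 27.3 and 27.8 in shCUEDC1, a log2 difference of -0.08 (95% interval -0.23 to 0.06, edgeR adjusted p = 0.484). RAD51C lies 0.737 megabases from CUEDC1 on chromosome 17, the nearest of the 4 members on that chromosome, from 58692573 to 58735611.

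RAD51B, of the same complex, was at 13.1, 10.6 and 12.01 CPM in shNC and 15.1, 13.6 and 14.9 CPM in shCUEDC1. The groups did not overlap. RAD51B differed by 0.29 (edgeR adjusted p = 0.119), and by 0.30 without shNC 3 (95% interval 0.09 to 0.51, edgeR adjusted p = 0.0303). XRCC3, the partner of RAD51C, was also higher in each knockdown library, by 0.24 (edgeR adjusted p = 0.106, and 0.0539 without shNC 3). KLC1 on the opposite strand covers 76.7% of the XRCC3 exon bases and differed by 0.13 (edgeR adjusted p = 0.152).

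RAD51AP1, which stimulates strand exchange, was lowest in shNC 3: 20.7, 18.6 and 15.6 CPM in shNC, against 18.8, 18.6 and 16.6 CPM in shCUEDC1. The groups overlapped, with a difference of -0.03 (edgeR adjusted p = 0.917). The rest of this group, RAD51D, XRCC2, RAD52, the motor protein RAD54L and its relative RAD54B, had log2 differences between -0.14 for XRCC2 and 0.21 for RAD54L. XRCC2 was lower and RAD51D higher in each knockdown library, with edgeR adjusted p of 0.417 and 0.384.

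Of the 12 Fanconi genes, 0 were called with all libraries. Their estimates lay above 0 for 9 and below 0 for 3, and over all genes tested 6788 lay above and 7036 below. The signs of FANCC, FANCL and UBE2T changed when 1 library was left out. The genes share the same libraries, and the sign counts have no test. UBE2T, the conjugating enzyme of the core complex, was the most abundant member per length, at 93.9 FPKM. It was at 82.5, 76.7 and 73.7 CPM in shNC and 78.5, 76.8 and 79.0 CPM in shCUEDC1, overlapping, with a difference of 0.01 (edgeR adjusted p = 0.946, 95% interval -0.12 to 0.14). FANCL, the ligase that UBE2T serves, differed by -0.08 (edgeR adjusted p = 0.703).

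FANCI and FANCD2 form the clamp that the core complex marks, and their estimates had opposite signs. FANCI was at 104, 96.9 and 90.5 CPM in shNC and 117, 106 and 105 CPM in shCUEDC1, a log2 difference of 0.16 (95% interval 0.01 to 0.31, edgeR adjusted p = 0.161). FANCD2 was at 43.0, 43.4 and 45.4 CPM in shNC and 42.1, 39.9 and 38.9 CPM in shCUEDC1, a difference of -0.12 (95% interval -0.26 to 0.01, edgeR adjusted p = 0.247). Neither pair of groups overlapped in CPM, although only a narrow gap parted shNC 1 from shCUEDC1 3 for FANCI. In FPKM the FANCI groups overlapped, at 22.37 in shNC 1 and 22.09 in shCUEDC1 3. The ratio of FANCI to FANCD2 in FPKM was 2.35 ± 0.236 in shNC and 2.91 ± 0.0682 in shCUEDC1 (SD, n = 3 each). This ratio was singled out after its values were seen and has no test. Such ratios were taken for 14 pairs of members, and in 5 of them the groups lay apart. The others of these were NBN to RAD50, NBN to MRE11, ATR to ATRIP and CHEK1 to CHEK2. The share among pairs of other genes was not computed.

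The calls of FANCM and FANCG also depended on shNC 3. FANCM, the translocase that anchors the core complex to DNA, was at 19.2, 17.3 and 23.6 CPM in shNC and 23.7, 23.9 and 20.8 CPM in shCUEDC1. Its groups overlapped through shNC 3 alone, and the log2 difference was 0.19 (edgeR adjusted p = 0.358), against 0.33 without that library (edgeR adjusted p = 0.00406). FANCG, a core scaffold subunit, was at 29.2, 26.3 and 22.3 CPM in shNC and 22.9, 25.3 and 22.5 CPM in shCUEDC1. Its difference was -0.14 (edgeR adjusted p = 0.46), and -0.23 without shNC 3 (edgeR adjusted p = 0.0243), when it was called lower.

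SLX4, the scaffold of the nucleases that cut the crosslink, was at 14.8, 15.02 and 12.7 CPM in shNC and 16.9, 17.9 and 16.3 CPM in shCUEDC1. The groups did not overlap and differed by 0.26 (edgeR adjusted p = 0.116). FANCF differed by 0.16 and FANCA by 0.18, also without overlap (edgeR adjusted p = 0.131 and 0.201). FANCB, FANCC and FANCE differed by 0.15, 0.06 and 0.22, with overlapping groups. FANCC had its lowest value in shNC 3, at 7.71 CPM against 10.1 and 11.9 CPM in the other controls.

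End resection is begun by MRE11, RAD50 and NBN with RBBP8 (CtIP) and is extended by EXO1, and 0 of these 5 were called with all libraries. RAD50 and MRE11 lay closest to 0 of the 5, with log2 differences of -0.02 (95% interval -0.13 to 0.09) and 0.02 (95% interval -0.13 to 0.17). NBN, their regulatory subunit, was at 131, 133 and 155 CPM in shNC and 160.2, 156 and 154 CPM in shCUEDC1. The value of shNC 3 lay within the range of the knockdown. NBN differed by 0.17 (edgeR adjusted p = 0.149) when shNC 3 was kept and by 0.25 without shNC 3 (95% interval 0.17 to 0.34, edgeR adjusted p = 1.93e-05).

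EXO1, the exonuclease of long-range resection, was at 31.5, 30.6 and 28.0 CPM in shNC and 38.2, 38.4 and 32.2 CPM in shCUEDC1. The groups did not overlap, and shCUEDC1 3 was close to the controls. EXO1 differed by 0.27 (edgeR adjusted p = 0.0787, 95% interval 0.08 to 0.46), and by 0.23 without shNC 3 (edgeR adjusted p = 0.0196). RBBP8, the second most abundant member per length at 48.4 FPKM, was at 159.9, 152 and 170.0 CPM in shNC and 155, 142 and 137 CPM in shCUEDC1. Its groups overlapped at shCUEDC1 1 and differed by -0.15 (edgeR adjusted p = 0.165, 95% interval -0.29 to -0.01).

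BLM with RMI1 and RMI2 resolves joined recombination intermediates, and WRN is a related helicase. Of these 4, 0 were called with or without shNC 3, and BLM differed by 0.02 (edgeR adjusted p = 0.931). RMI1 was at 39.8, 39.6 and 33.5 CPM in shNC and 38.9, 39.9 and 38.6 CPM in shCUEDC1, with shNC 3 the lowest, and differed by 0.06 (edgeR adjusted p = 0.711). RMI2 was at 47.8, 47.4 and 37.6 CPM in shNC and 41.9, 42.1 and 44.6 CPM in shCUEDC1, so that shNC 3 was the lowest of the 6. RMI2 differed by -0.05 with all libraries and by -0.15 without shNC 3 (edgeR adjusted p = 0.806 and 0.0539). WRN was at 19.3, 16.6 and 23.8 CPM in shNC and 16.8, 15.8 and 17.6 CPM in shCUEDC1. Its estimate of -0.25 became -0.10 without shNC 3, which had the highest value.

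Of the other checkpoint genes, ATM, the kinase activated by double-strand breaks, was at 54.4, 53.7 and 59.5 CPM in shNC and 57.5, 53.5 and 55.0 CPM in shCUEDC1 (log2 difference -0.01, 95% interval -0.15 to 0.13). ATR, the kinase upstream of CHK1, was at 68.2, 64.3 and 87.4 CPM in shNC and 67.4, 66.6 and 68.5 CPM in shCUEDC1. Only shNC 3 stood out, and ATR differed by -0.12 with it and 0.03 without it (edgeR adjusted p = 0.526 and 0.708). TOPBP1, the ATR activator, differed by -0.04, and CHEK2, which encodes the kinase activated by ATM, by 0.10 (edgeR adjusted p = 0.809 and 0.37). CHEK2 was at 30.9, 31.6 and 33.7 CPM in shNC and 34.4, 34.0 and 34.8 CPM in shCUEDC1.

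ATRIP, the partner that brings ATR to single-stranded DNA, was at 10.5, 12.7 and 14.3 CPM in shNC and 15.4, 16.2 and 14.0 CPM in shCUEDC1. The value of shNC 3 lay among the knockdown libraries. ATRIP differed by 0.28 (edgeR adjusted p = 0.177) when shNC 3 was kept and by 0.40 without shNC 3 (95% interval 0.19 to 0.61, edgeR adjusted p = 0.00372). TREX1 exons on the same strand cover 27.9% of the exon bases of ATRIP, and reads there cannot be told apart.

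Of the chromatin response genes other than TP53BP1, 0 were called with all libraries. MDC1, the adaptor on phosphorylated H2AX, was at 51.4, 48.3 and 44.9 CPM in shNC and 44.7, 42.3 and 39.6 CPM in shCUEDC1. The groups were separated by a narrow gap between shNC 3 and shCUEDC1 1. MDC1 differed by -0.19 (edgeR adjusted p = 0.131), and by -0.24 without shNC 3 (95% interval -0.36 to -0.11, edgeR adjusted p = 0.00308). RNF8 and RNF168 are the ligases that build the ubiquitin mark 53BP1 reads. RNF8 was at 28.6, 27.4 and 27.0 CPM in shNC and 25.7, 25.8 and 27.6 CPM in shCUEDC1, overlapping, and differed by -0.07 (edgeR adjusted p = 0.595). RNF168 was at 68.3, 70.9 and 75.9 CPM in shNC and 63.9, 67.2 and 66.0 CPM in shCUEDC1. Each knockdown library was below each control, by -0.13 in the fit (edgeR adjusted p = 0.212).

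POLQ, the polymerase of theta-mediated end joining, was at 23.5, 20.8 and 23.5 CPM in shNC and 28.8, 25.2 and 28.5 CPM in shCUEDC1. Each knockdown library was above each control. POLQ differed by 0.28 (95% interval 0.09 to 0.47, edgeR adjusted p = 0.0638) and by 0.31 without shNC 3 (edgeR adjusted p = 0.00316). HELQ, a helicase related to POLQ, was at 15.8, 13.8 and 17.5 CPM in shNC and 15.6, 15.3 and 17.2 CPM in shCUEDC1, overlapping, and differed by 0.03 (edgeR adjusted p = 0.9).

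Counted by overlap alone, 18 of the 47 members (38.3%) had groups that lay apart, 14 of them higher (29.8%) and 4 lower (8.51%) in shCUEDC1. Of all genes tested 31.3% lay apart, 15.7% higher and 15.6% lower. Without shNC 3, 11 members were called, 9 higher (BARD1, RAD51B, FANCM, NBN, EXO1, ATRIP, CHEK1, TP53BP1 and POLQ) and 2 lower (FANCG and MDC1). That was 23.4% of the 47, while 28.1% of all genes were called in the same fit, 14.3% higher and 13.8% lower.

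**Figure D3:**
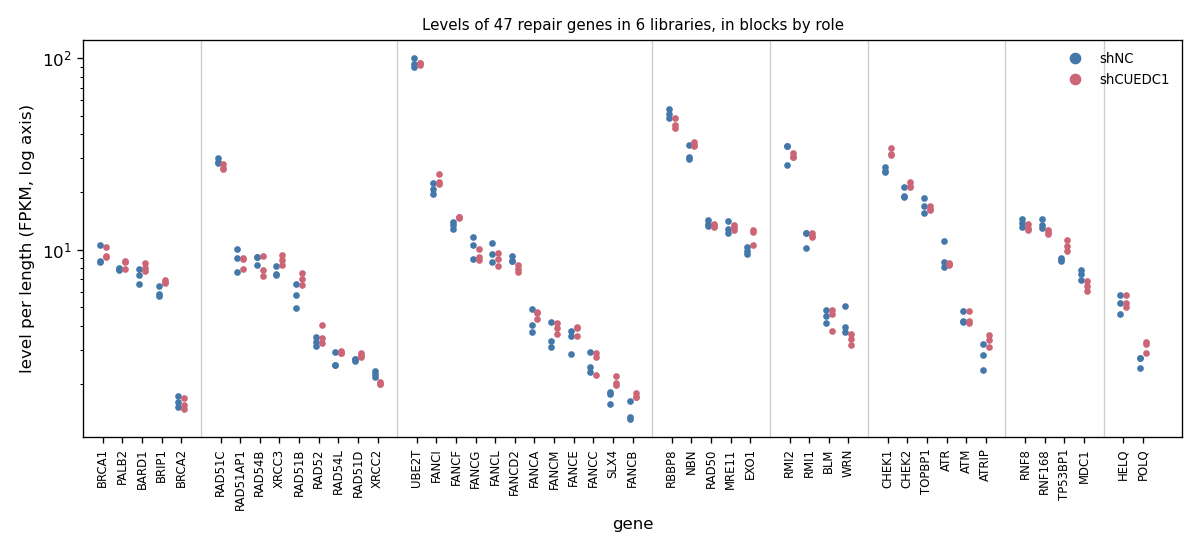
Level per length in FPKM (log axis) of the 47 genes in each library, in blocks by role and ordered by mean level. The 47 genes span from 1.58 FPKM for FANCB to 93.9 FPKM for UBE2T, and the 2 groups lie close together at each gene.

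Per length, the members spanned from 1.58 FPKM for FANCB to 93.9 FPKM for UBE2T, with a median of 8.42 FPKM against 9.39 FPKM over all genes tested. BRCA2 was at 1.59 FPKM, below its bridge PALB2 at 8.19 FPKM. Subunits of 1 complex could be close, as MRE11 and RAD50 were, with an FPKM ratio of 0.952 ± 0.0379 in shNC and 0.983 ± 0.0204 in shCUEDC1 (SD, n = 3 each). Exons of AC116366.3 on the same strand cover 79.7% of the RAD50 exon bases, and reads there cannot be told apart. In RAD54L, RAD54B, FANCA, FANCF and FANCL, exons of another coding gene cover between 11.3% (FANCF) and 59.1% (RAD54B) of the exon bases. Subunits could also be far apart in level: RMI2 was at 7.26 ± 1.41 times BLM in shNC and 7.11 ± 1.20 times in shCUEDC1. The ratio of ATR to ATRIP lay between 2.89 and 3.67 in shNC and between 2.31 and 2.74 in shCUEDC1. It was among the 5 of 14 pairs whose groups lay apart, and was singled out after its values were seen, with no test.

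The members did not move as a block in shNC 3. Relative to the mean of shNC 1 and 2, 8 members lay more than 0.2 above and 6 more than 0.2 below on the log2 CPM scale in shNC 3, with a median of 0.02. The median was 0.09, 0.07 and 0.03 in shCUEDC1 1, 2 and 3. WRN and ATR were highest in shNC 3, at 0.40 each, and FANCC was lowest, at -0.48. Across the 47 genes the shNC 3 value had a Spearman rho of -0.41 with the GC content of the longest coding transcript and 0.21 with its length, and across 13728 tested genes the values were -0.40 and 0.24. Genes share the same libraries and are not independent, so these describe the libraries only. The same rho of the knockdown libraries was 0.02 with GC content and 0.12 with length over the members, and -0.12 and 0.05 over the 13728 genes. When offsets for GC content and length were added to the edgeR fit, an alternative chosen after seeing the data, 6 members were called, all higher: CHEK1, TP53BP1, BARD1, SLX4, NBN and POLQ. In that fit 14.9% of all genes were called, 8.23% higher and 6.67% lower.

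**Figure D4:**
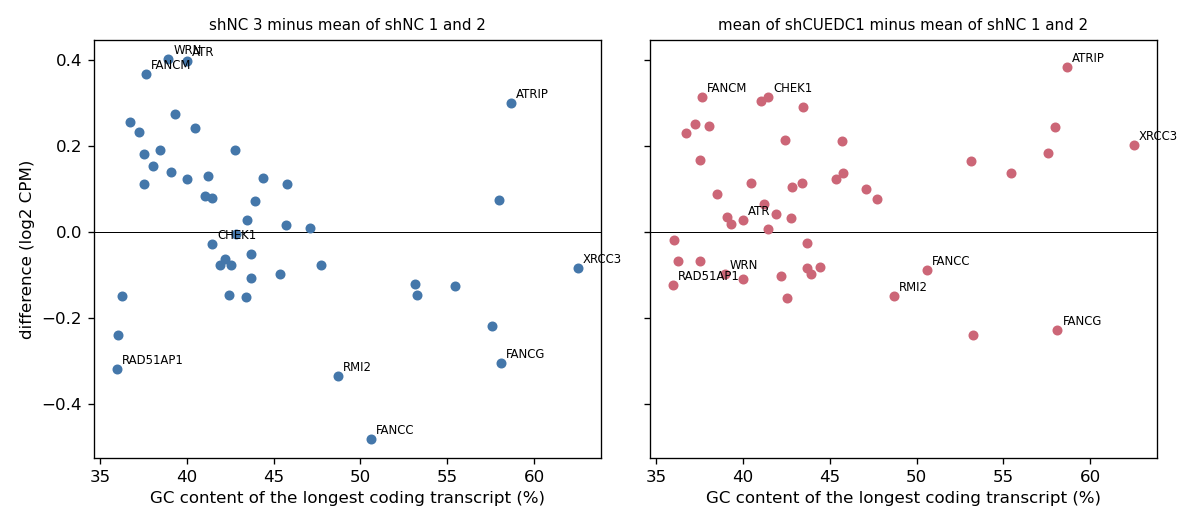
Difference in log2 CPM from the mean of shNC 1 and 2 (vertical axis) against transcript GC content in percent (horizontal axis) for the 47 genes, for shNC 3 (left) and the mean of the shCUEDC1 libraries (right). In shNC 3 WRN and ATR stand at 0.40 and FANCC at -0.48, and genes low in GC tend to lie higher.

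Genes of the cell cycle were measured beside the members. Of 20 S phase genes, MCM6 and MCM2 rose, by 0.48 and 0.22 (edgeR adjusted p = 0.00159 and 0.0318), and 0 fell, with a median of 0.05 over the 20, which was -0.03 without shNC 3. Their median in shNC 3 was -0.19 relative to shNC 1 and 2. Of 20 mitotic genes, 5 rose and 0 fell, with a median of 0.12: TOP2A by 0.34 and AURKB by 0.36 (edgeR adjusted p = 0.00398 and 0.0294), and DLGAP5, NUSAP1 and BIRC5 by 0.24, 0.23 and 0.22 (edgeR adjusted p = 0.0251, 0.0331 and 0.0290). Without shNC 3, 2 S phase genes were called higher and 2 lower, and 8 mitotic genes higher and 0 lower. That was 20% of the S phase and 40% of the mitotic list, against 28.1% of all genes in the same fit. With all libraries the shares called were 10% and 25%, against 9.96% of all genes tested. The 7 calls over both lists became 2 or 3 when any other library was left out, and 4 with limma-trend. Their part in the rise of CHEK1 was not tested. In bulk RNA a change in the share of cells in a phase and a change of RNA per cell cannot be told apart.

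A list of 66 other repair genes, from strand exchange to end joining, gave 1 rise and 2 falls, or 4.55% called against 9.96% of all genes tested. The median over the list was 0.02. CENPX, a histone-fold protein that works with FANCM, rose by 0.27, from 64.1, 59.5 and 56.8 CPM in shNC to 69.4, 71.9 and 75.8 CPM in shCUEDC1 (edgeR adjusted p = 0.0277). ERCC4 (XPF), the nuclease that SLX4 brings to crosslinks, fell by 0.36, from 36.2, 34.5 and 34.1 to 28.9, 27.8 and 24.8 CPM (edgeR adjusted p = 0.0152). NHEJ1 (XLF), a ligation factor of non-homologous end joining, fell by 0.41 (edgeR adjusted p = 0.0311). Without shNC 3 these 3 genes were also called, in a total of 13 of the 66. Of the 66, 1 was called without shNC 1, shNC 2 or shCUEDC1 1 and 0 without shCUEDC1 2 or shCUEDC1 3, and with the replicate number as a block 0 were higher and 2 lower.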

How the data were processed

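The deposited table holds, per the file headers, estimated counts (read counts) for 17758 genes that are fractional and not normalised, with FPKM and TPM that the authors had scaled for length and depth, and a signal column in which the counts are divided by 1 size factor per library. Only estimated counts and FPKM were used. The build was GRCh38 patch p13, per the submitters' processing notes, and the use of strand, like the aligner and counter, is not given in the sources used here.

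Counts were rounded, filtered with filterByExpr (minimum count 10), normalised by TMM and compared with edgeR 4.0.16 in R 4.3.3 over all genes. The members and lists were chosen with earlier results of these data known. Genes named with values are CUEDC1, members called with all libraries or without shNC 3, the 2 most abundant members of each role group, and the proliferation, marker and repair genes called. Values of BRCA2, FANCD2, SLX4, WRN, ATM, ATR and other members were added after they were seen. One gene of the other repair genes is not reported here by name. C1orf112 stands for FIRRM in the list of other repair genes. Alternatives were RLE factors, 2 other filters, DESeq2 1.42.0, limma 3.58.1 (voom, and trend on log2 FPKM with 0.5 or 0.1 added), a replicate block, each library left out, and offsets for GC content and length from GENCODE v29 on GRCh38. On simulated counts for shCUEDC1 against shNC (13694 genes) edgeR recovered 76.5% of genes changed 1.5-fold and 91.9% of those changed 2-fold, and 11.7% of its calls were unchanged genes.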

Additional observations from a re-analysis of the deposited data

How the results depend on the processing

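The log2 difference of CUEDC1 and that of CHEK1 kept their direction and call in all 15 alternatives, and the median over the members stayed between 0.04 and 0.09. Leaving out 1 library gave 468 to 3925 genes called in all, 1 to 11 members, 0 to 13 of the other repair genes and 2 to 12 of the 40 proliferation genes. Each of these highest counts was that without shNC 3. Without any 1 of the other 5 libraries the member called was CHEK1, and all genes called numbered 688 without shNC 1, 513 without shCUEDC1 1, 468 without shCUEDC1 2 and 519 without shCUEDC1 3. Members called numbered 1 (CHEK1) with at least 1 CPM in 3 libraries, with limma-voom and with limma-trend at either pseudocount, and 6 with GC content and length offsets. Other repair genes called numbered 6 with DESeq2 and 6 with those offsets, and proliferation genes 4 with limma-trend at either pseudocount. The cause was not tested.

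With the replicate number as a block, 1 member was called (CHEK1) and 1117 genes in all. Deviations of same-numbered libraries correlated at 0.00911, 0.0707 and 0.0267, so no pairing by number was seen. With so few libraries in each group, these correlations cannot decide whether the numbers pair the samples. Not every library correlated best with its own number.

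Estimates near 0 changed sign for 15 members, none of them called, and none larger than 0.12 with all libraries. When 1 library was left out the estimates ranged from -0.075 to 0.033 for BRCA2, -0.12 to 0.071 for RAD51AP1, -0.24 to 0.0099 for RAD54B, -0.089 to 0.21 for FANCC, -0.15 to 0.023 for FANCL, -0.024 to 0.055 for UBE2T, -0.028 to 0.091 for MRE11, -0.042 to 0.010 for RAD50, -0.062 to 0.091 for BLM, -0.017 to 0.099 for RMI1, -0.15 to 0.012 for RMI2, -0.042 to 0.038 for ATM, -0.20 to 0.030 for ATR, -0.10 to 0.034 for TOPBP1 and -0.056 to 0.12 for HELQ. With limma-trend at pseudocounts 0.5 and 0.1, UBE2T was at -0.0076 both times and BLM at -0.028 and -0.031. With GC content and length offsets UBE2T was at -0.012 and ATM at 0.0024.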

Other observations

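Among the repair genes outside the 47, the fit without shNC 3 called 13 of 66, or 19.7%, against 28.1% of all genes, with 6 higher and 7 lower. BRCC3, the deubiquitinating subunit of the BRCA1-A complex, was higher by 0.45 (edgeR adjusted p = 6.60e-07), while ABRAXAS1, the scaffold of that complex, differed by -0.33 (edgeR adjusted p = 0.0200). DNA2, a nuclease of long-range resection, was higher by 0.33 (edgeR adjusted p = 5.81e-04). PARP2, which senses strand breaks, differed by -0.33 (edgeR adjusted p = 6.43e-06). None of these 4 genes was called with all 6 libraries, and they were singled out after their values were seen.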
